A study of Mus musculus with 30 samples.

Results

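The regions bound by RNA polymerase II (Pol II) and listed by the study's authors as specific to microglia lacking Mir137, or to their controls, are described here. They are all 4647 regions of the cKO Pol II list and all 394 regions of the cWT Pol II list, 5041 of the 22399 regions listed for the 5 antibodies of the series. Both groups were microglia, the resident macrophages of the brain, sorted from the brains of C57BL/6J mice 8 weeks old. cKO mice were Mir137 loxP/loxP and cWT mice were Mir137 +/+. Both genotypes also carried Tmem119-CreERT2, a Cre recombinase that tamoxifen activates and that is made in cells using the microglial gene Tmem119, and the series text gives tamoxifen for 7 consecutive days at 7 to 8 weeks of age. The labels give 3 replicates per group and about 100000 sorted cells per genotype, the series text gives 4 mice, and nothing states whether a replicate is a separate mouse.

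The assay was CUT&Tag per the labels' protocol, although the series calls it ChIP-seq. In CUT&Tag a transposase is brought to the antibody's target and inserts sequencing adapters into the DNA around it. One catalogue number stands in the protocol for the antibodies named Pol II, Pol II Ser5P and H3K27ac, so the labels do not show whether different antibodies gave their lists. The data are lists of regions with no value per replicate and no read counts. Read depth is unknown, the spread between replicates cannot be measured, and every test below compares lists of regions, in which neighbouring regions can share a gene. In bulk samples, fewer cells of a type and less polymerase per cell cannot be told apart.

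Pol II transcribes protein-coding genes and most microRNA genes. It assembles with general factors at gene starts, is phosphorylated at serine 5 of its tail as it initiates, often pauses just downstream of the start, and then travels through the gene body. It is also found at enhancers, which in microglia and other macrophages are set up by factors such as Pu.1, C/EBP, AP-1 and IRF proteins. miR-137 is best known for silencing messenger RNAs that match its seed, the stretch of bases near its 5′ end.

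The mature strands of miR-137 and some of the gene starts under listed Pol II regions are shown first, since the results turn on where these regions lie. The microRNA strands (RefSeq, mm10, chromosome 3, plus strand) have their seed, bases 2 to 8, in capitals.
mmu-miR-137-3p: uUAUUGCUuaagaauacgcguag
mmu-miR-137-5p: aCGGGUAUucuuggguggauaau

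Each gene-start window below runs from 250 bases before to 50 bases after an annotated start and comes from RefSeq on mm10. The first 4 have every CpG in capitals. Dgcr8, which encodes the partner of Drosha in microRNA processing, shows a start rich in CpG under cKO regions (chr16:18289119-18289418, minus strand, 43 CpG). Irf2, a transcription factor of the interferon regulatory family, shows a start inside a gene that held several cKO regions (chr8:46739495-46739794, plus strand, 19 CpG). Rpl4, a ribosomal protein, shows a start where a cKO and a cWT region met (chr9:64173137-64173436, plus strand, 13 CpG). Siglech, a surface receptor of homeostatic microglia, shows a start poor in CpG under a cKO region (chr7:55767934-55768233, plus strand, 2 CpG).
Dgcr8: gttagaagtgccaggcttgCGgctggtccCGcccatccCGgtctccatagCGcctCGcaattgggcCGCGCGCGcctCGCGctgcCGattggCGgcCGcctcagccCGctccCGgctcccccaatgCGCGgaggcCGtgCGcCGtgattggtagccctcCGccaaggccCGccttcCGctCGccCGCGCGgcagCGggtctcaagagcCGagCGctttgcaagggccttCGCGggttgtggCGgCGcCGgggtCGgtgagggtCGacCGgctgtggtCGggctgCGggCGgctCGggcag
Irf2: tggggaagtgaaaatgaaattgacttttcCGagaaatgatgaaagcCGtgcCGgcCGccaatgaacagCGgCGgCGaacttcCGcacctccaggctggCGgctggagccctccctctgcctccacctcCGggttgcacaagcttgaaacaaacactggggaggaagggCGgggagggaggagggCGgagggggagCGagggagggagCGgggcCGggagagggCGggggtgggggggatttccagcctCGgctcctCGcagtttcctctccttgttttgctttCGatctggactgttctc
Rpl4: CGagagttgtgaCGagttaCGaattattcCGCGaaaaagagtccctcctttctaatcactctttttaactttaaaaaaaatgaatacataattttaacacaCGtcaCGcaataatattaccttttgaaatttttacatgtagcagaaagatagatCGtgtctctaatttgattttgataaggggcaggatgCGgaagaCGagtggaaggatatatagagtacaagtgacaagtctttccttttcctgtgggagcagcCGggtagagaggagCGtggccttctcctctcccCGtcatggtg
Siglech: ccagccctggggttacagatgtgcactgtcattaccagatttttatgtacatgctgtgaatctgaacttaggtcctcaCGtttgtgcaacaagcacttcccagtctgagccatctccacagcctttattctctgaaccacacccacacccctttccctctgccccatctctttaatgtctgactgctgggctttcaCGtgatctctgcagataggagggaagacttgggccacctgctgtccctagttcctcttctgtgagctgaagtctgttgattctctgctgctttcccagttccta

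Nlrp3, the sensor of the inflammasome, is shown because its cKO and cWT regions lay at different annotated starts. Capitals here mark a match to the seed of miR-137-3p, AGCAATA or its reverse complement TATTGCT. The window under the cKO region (chr11:59542436-59542735, plus strand) has none, and the window under the cWT region (chr11:59541319-59541618, plus strand) has 1. The cWT region covers only part of its window, and this match lies outside the region and before the annotated start.
Nlrp3 start under the cKO region: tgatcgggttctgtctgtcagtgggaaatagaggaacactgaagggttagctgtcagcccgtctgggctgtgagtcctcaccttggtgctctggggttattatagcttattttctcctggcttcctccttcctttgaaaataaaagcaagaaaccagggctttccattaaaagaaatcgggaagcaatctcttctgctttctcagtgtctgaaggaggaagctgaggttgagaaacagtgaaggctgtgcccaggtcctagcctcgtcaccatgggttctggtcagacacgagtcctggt
Nlrp3 start under the cWT region: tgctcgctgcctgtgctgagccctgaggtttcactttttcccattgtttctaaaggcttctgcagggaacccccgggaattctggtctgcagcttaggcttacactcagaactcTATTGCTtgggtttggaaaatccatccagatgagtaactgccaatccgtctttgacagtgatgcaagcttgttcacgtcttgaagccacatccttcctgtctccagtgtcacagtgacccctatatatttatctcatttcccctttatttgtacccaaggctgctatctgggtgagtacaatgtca

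Listed Pol II regions lay mostly in the cKO list. Of the 5041 regions, 4647 were cKO-specific, a share of 92.2% (95% exact Clopper-Pearson interval 91.4 to 92.9%, covering the counting of regions only, as do all intervals below). The share was 98.0% for Pol II Ser5P, 95.9% for Pu.1, 61.5% for H3K4me3 and 10.8% for H3K27ac. The Pol II share differed from each of these 4 (Fisher's exact tests, two-sided, adjusted over 4 by Benjamini-Hochberg, largest adjusted p = 1.05e-05). The sources used here do not give how a region became specific to a genotype, and a difference in depth or background between the genotypes was not tested.

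The names of the regions carry running numbers, which shows how much of each numbered set was listed. The cKO list holds 4647 regions out of at least 9896 numbered ones, at most 47.0%. The cWT list holds 394 out of at least 5807, at most 6.78%. At least 5249 regions numbered for cKO and 5413 numbered for cWT were therefore left off these lists. These are lower bounds, the full numbers of unlisted regions are not known, and what separates them from the listed regions was not tested.

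Most regions were narrow and carried high deposited p-values. Median widths were 353 bp in the cKO list (quartiles 291 and 465 bp) and 313.5 bp in the cWT list (quartiles 278.25 and 379.75 bp). The deposited p-value, for which no source used here names a test, had a median of 0.789 in the cKO list and 0.862 in the cWT list. It lay under 0.05 in 17 cKO regions (0.366% of the list) and 2 cWT regions (0.508% of the list), and the deposited adjusted value lay under 0.05 in 2 cKO regions and in no cWT region. The lists are therefore described here as the authors selected them, with the p-value used only to order regions within a list.

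Within the cKO list, regions at gene starts had the higher deposited signal, on the authors' own scale. Its median was 13.3 at gene starts, 10.9 in gene bodies and 12.1 between genes. In the cWT list the medians were 10.2, 9.32 and 9.97 at the same locations. The 153 cKO regions that the names call primary had a median signal of 20.4, and the 4494 called secondary had 12.1. Signals are not compared between the lists, since nothing states a shared scale.

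**Figure D1:**
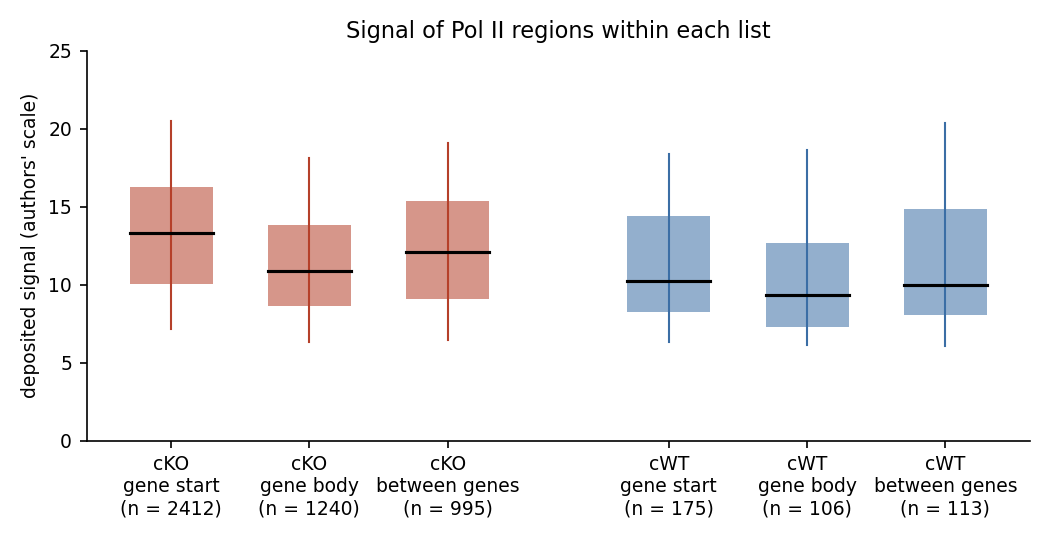
Deposited signal (authors' scale, vertical axis) of Pol II regions by location, cKO list in red and cWT list in blue. Boxes span the quartiles, black lines are medians and thin lines run from the 5th to the 95th percentile; in each list the median was highest at gene starts, and the scales of the lists are not known to be shared.

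About 1 in 2 cKO Pol II regions lay at the start of a protein-coding gene, and the cWT list had a smaller share there. A region counted as at a gene start when it overlapped 2 kb on either side of a start, and as in a gene body when its midpoint lay elsewhere inside a gene. At gene starts lay 2412 of 4647 cKO regions (51.9%, interval 50.5 to 53.4%) and 175 of 394 cWT regions (44.4%, interval 39.4 to 49.5%). The adjusted p was 0.0156 (Fisher's exact test, two-sided, adjusted over 4 location tests by Benjamini-Hochberg). Without regions narrower than 300 bp the shares were 52.8% of cKO and 47.8% of cWT regions and the difference no longer passed (Fisher's exact test, adjusted p = 0.295; range over all alternatives 0.00372 to 0.295).

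Gene bodies held nearly equal shares. There lay 1240 cKO regions (26.7%) and 106 cWT regions (26.9%), with an adjusted p of 0.953 by the same Fisher's exact test and intervals of 25.4 to 28.0% and 22.6 to 31.6%. The rest lay between genes, 995 cKO regions (21.4%) and 113 cWT regions (28.7%). Divided into 5 equal parts from start to end, genes of known strand held 18.3 to 21.9% of their 972 cKO gene-body regions in each part, and 16.7 to 25% of their 84 cWT ones. Gene-body regions were thus spread along genes in both lists. Windows at the 3′ end, away from any start, held 2.80% of cKO and 2.54% of cWT regions.

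The peak at starts was narrow. Within 250 bp of a start of known strand lay the midpoints of 31.0% of all cKO regions (interval 29.6 to 32.3%) and 22.1% of all cWT regions (interval 18.1 to 26.5%). Among midpoints within 2 kb of such a start, 63.2% of 1972 cKO regions lay downstream of it (interval 61.1 to 65.4%), as did 73.0% of 137 cWT regions (interval 64.7 to 80.2%). The distance from the nearest start had a median of 1490 bp for cKO regions and 5576 bp for cWT regions. No test was run on these distances.

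**Figure D2:**
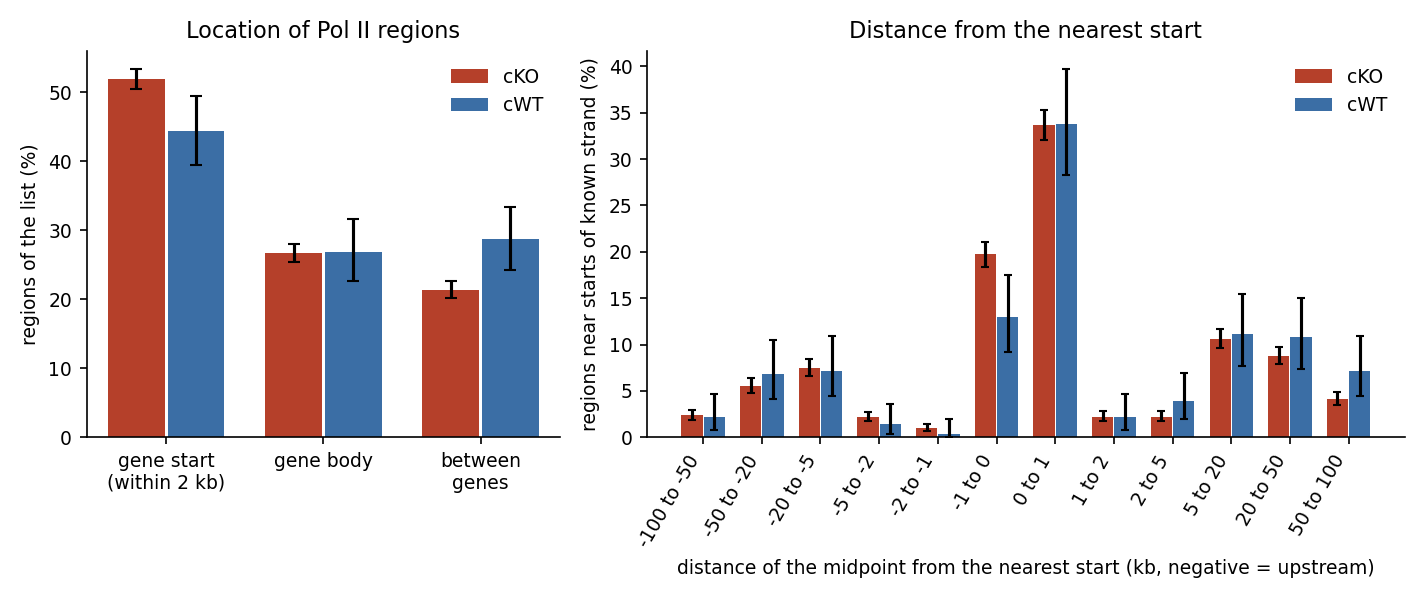
Left, share of Pol II regions (%) at gene starts, in gene bodies and between genes; right, share (%) of the 3482 cKO and 278 cWT regions whose nearest start has a known strand and lies within 100 kb, by distance of the midpoint from it (kb, negative values upstream, unequal bins). Red bars are the cKO list, blue bars the cWT list and error bars exact 95% intervals; the bin from 0 to 1 kb downstream held 33.7% of these cKO and 33.8% of these cWT regions, and the bin from 1 kb upstream to 0 held 19.7% of cKO and 12.9% of cWT ones.

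The gene starts under listed regions were rich in CpG. The cKO regions overlapped 1842 of the 21263 RefSeq start windows of protein-coding genes, and the cWT regions overlapped 123. The median window held 24 CpG under cKO regions and 23 under cWT regions, against 13 over all windows. The Dgcr8 window shown above, with 43, lies above that range of medians, and the Siglech window, with 2, lies far below it. Searched on both strands, the letters GGGCGG of a GC-rich box occurred in 71.8% of cKO windows and 70.7% of cWT windows, against 46.2% of all windows. The letters TATAAA of the TATA box occurred in 5.59% of cKO windows and 4.07% of cWT windows, against 12.6% of all windows. Letters of Pu.1-type ETS, AP-1, C/EBP and IRF sites occurred in 2.82, 3.37, 1.95 and 1.90% of cKO windows. In cWT windows these shares were 1.63, 0, 0.813 and 0.813%, and in all windows 3.13, 6.99, 2.84 and 3.35%. The seed match AGCAATA occurred in 1.19% of cKO windows, 1.63% of cWT windows (2 of 123) and 1.69% of all windows. These are matches of letters in a window and no test was run on them. All windows include those of genes that microglia do not use.

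By chromosome, the cKO share of Pol II regions lay between 86.5 and 95.3% on the autosomes and X, and at 63.6% on Y (7 cKO and 4 cWT regions). Chromosome X held 2.07% of the cKO list and 3.81% of the cWT list (Fisher's exact test, adjusted p = 0.0413), and chromosome Y held 0.151 and 1.02% (adjusted p = 0.0156). The difference on X did not pass without stretches rich in predicted genes, where X held 1.75% of cKO and 4.29% of cWT regions (Fisher's exact test, adjusted p = 0.0704; range over alternatives 0.0381 to 0.0704). Whether reads on Y come from repeated copies was not tested.

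Where cKO and cWT regions came close, they lay side by side more than on top of each other. Both lists hold only regions selected as specific to a genotype, so low overlap cannot be told apart from that selection. Of the 394 cWT regions, 63 (16.0%) lay within 1 kb of a cKO region and 30 (7.61%) overlapped a cKO region. The 31 overlapping pairs shared between 3 and 144 bp, with a median of 49 bp, never more than 26.2% of the cWT region or 29.9% of the cKO region. Of these pairs, 22 lay at gene starts, among them Adam17, the protease that sheds TNF, and Ndufa10, a subunit of respiratory complex I.

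At Rpl4, whose start is shown above, the cKO region ran from 64172877 to 64173344 on chromosome 9 and the cWT region from 64173315 to 64173602, with 30 bp in common. The cKO region is assigned to the neighbouring gene Zwilch, a kinetochore protein, because its midpoint lies nearer to that start. At Nlrp3 the cKO region (chromosome 11, 59542237 to 59542697, signal 13.7) and the cWT region (59541523 to 59541878, signal 15.5) did not touch. Their p-values in the authors' deposited lists were 0.559 and 0.992. The second is the highest value in the cWT list, so the cWT region ranks last by it. Both of these Nlrp3 regions were overlapped by cKO Pol II Ser5P and by cKO Pu.1. At Rpl4 and Nlrp3 the genotypes were thus listed at neighbouring positions.

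Over the 21900 protein-coding genes of the RefSeq table, 3525 (16.1%) had at least 1 cKO Pol II region assigned to them and 335 (1.53%) had a cWT region. A region was assigned to the gene with the start nearest to its midpoint, within 100 kb, so it can lie inside a different gene. Regions were in the cKO list only for 3393 genes (15.5%), in the cWT list only for 203 (0.927%) and in both for 132 (0.603%). At a gene start, 2282 genes (10.4%) had a cKO region and 172 (0.785%) had a cWT region. Of the 335 genes with a cWT region, 132 (39.4%, interval 34.1 to 44.9%) also had a cKO region, while 16.1% of all protein-coding genes had a cKO region. Longer genes collect more regions. Median length was 27047 bp for cKO-only genes, 22299 bp for cWT-only genes, 43927 bp for genes with both and 17146 bp for all. With all genes divided by length into 5 equal groups, a cKO region was assigned to 6.46% of the shortest group and to 23.2% of the longest.

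Several regions at a gene were uncommon. Among genes with a cKO region, 2897 (82.2%) had 1, 459 had 2 and 50 had at least 4. In the cKO list 118 pairs of regions abutted with no base between them, and in the cWT list 3 pairs did. Both members of all these pairs carry the identical signal value. Counts per gene are therefore also given with abutting regions joined, an alternative added after seeing the data, which left 38 genes with at least 4.

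The 20 genes with the most cKO regions held 103 of them. They were ranked by number of regions, and longer genes more often had a region. Rcsd1, which encodes an actin-capping regulator, led with 7. Its start is not in the table used, nor are those of Chd7, Plcl2, Zfp516, Lyn and Cd83, so either gene end stood in. Ssh2, a phosphatase that activates cofilin, Plcl2, a phospholipase C-like protein, Tns3, a tensin linking integrins to actin, and Chd7, a chromatin remodeller, had 6 each, although Ssh2 had 5 once abutting regions were joined. Of these 20 genes, Chd7 (2 cWT regions) and Apbb1ip (1 cWT region), an adaptor for integrin activation, had cWT regions too. Of the 103 regions, 17 lay at a gene start, 50 were overlapped by cKO Pol II Ser5P, 10 by cWT H3K27ac and 4 by cKO Pu.1. Over all 4647 cKO regions these shares were 51.9, 51.2, 15.02 and 3.68%, in the same order. The 20 genes were picked for having many regions, and the part of this choice in the start count was not tested. None of the 103 had a deposited p-value under 0.05.

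The regions of these genes lay in different parts of them. Those of Irf2 lay at the start (chromosome 8, 46739471 to 46739837, signal 8.05), just inside the gene (46740978 to 46741468, signal 11.3) and at 25.4, 38.7 and 49.7 kb from the start. Tns3 likewise had 1 region 339 bp from its start and 5 in the gene body, up to 98.0 kb away. For Mef2c, a transcription factor of homeostatic microglia with several annotated starts, 1 region lay 936 bp from a start and 4 lay in the gene body. The start-proximal Mef2c region (chromosome 13, 83524389 to 83524796) and the next one (83540212 to 83540681) were overlapped by cWT H3K27ac regions. In all 3 genes more regions lay in the gene body than at a start.

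Others lay outside the gene. Klf6, a transcription factor of the Kruppel-like family, had 5 regions (4 after joining), all between genes and at least 26.9 kb from its start, and the strongest (chromosome 13, 5888211 to 5888581, signal 19.7) was overlapped by cKO Pol II Ser5P and cKO Pu.1. Batf3, an AP-1 family factor of myeloid cells, had 1 region at its start and 3 between genes, all 4 overlapped by cKO Pol II Ser5P. Its farthest region, 27.6 kb from the start (chromosome 1, 191125826 to 191126195), had the highest signal of the 4, 20.1, and was also overlapped by cKO Pu.1. Assignment of such distant regions rests on distance alone.

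Otulin, the enzyme that removes linear ubiquitin chains and restrains NF-kB signalling, had 5 regions within 11875 bp (4 after joining), reaching from its start into the gene. Fgd2, an exchange factor for Cdc42, had 5 that became 3 after joining, the first at its start (chromosome 17, 29362145 to 29362518, signal 11.4). Runx1, a transcription factor of blood and microglial development, had 5, with 1 at an annotated start (chromosome 16, 92825841 to 92826305, signal 8.72), overlapped by cWT H3K27ac. Lyn, a Src-family kinase of myeloid receptors, had 5, all in its gene body. Slc1a3 had 5, with 4 in its gene body and none at a start. It encodes a glutamate transporter best known from astrocytes.

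The remaining genes of the 20 were Zfp516, a zinc-finger protein, Dtnbp1, a subunit of the complex that builds lysosome-related organelles, Adtrp, Tuba1a, an alpha-tubulin, and Cd83, a surface protein of activated myeloid cells. Zfp516 had 5 regions (3 after joining), Dtnbp1 had 5 (4 after joining) and Adtrp had 5. Tuba1a had 4 (3 after joining), and Cd83 had 4.

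**Figure D3:**
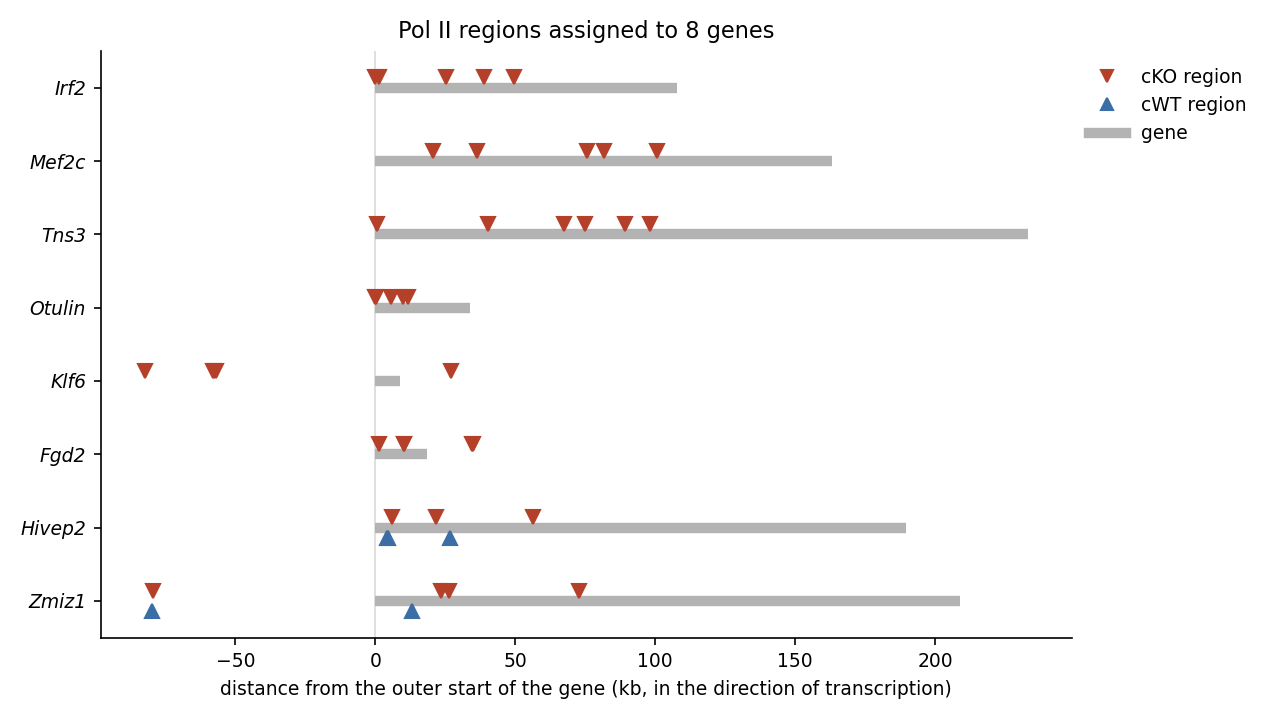
Pol II regions assigned to 8 genes, drawn as distance from the outer start of each gene in the direction of transcription (kb); these 8 were picked from the named genes after their values were seen. Red triangles are cKO regions, blue triangles cWT regions and grey bars genes; abutting regions fall on the same mark, the regions of Klf6 all lie outside the gene, and Hivep2 and Zmiz1 hold regions of both genotypes.

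In the cWT list 17 genes had at least 2 regions, and 16 did after joining. Gm52481, a predicted gene on chromosome Y, had 4 cWT and 4 cKO regions, all of them outside the gene. Hivep2, a zinc-finger factor that binds kB-like sequences, had 3 cKO and 3 cWT regions, and 2 of its cWT regions abut at its start (chromosome 10, 13965622 to 13965903 and 13965904 to 13966127, signal 9.55 in both). Disc1, a scaffold protein, had 1 cKO region in its gene body and 2 cWT regions at its start, at 125052005 to 125052555 and 125054284 to 125054753 on chromosome 8, with signals of 5.02 and 15.3. Of the 15 cWT genes named by this rule, 9 also had a cKO region.

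Genes with 2 cWT and no cKO regions included Tiam1, an exchange factor for Rac, Sdf4, a calcium-binding protein of the Golgi, and Zfp213, a zinc-finger protein. Both Tiam1 regions lay in its gene body (chromosome 16, 89871118 to 89871651, signal 16.2, and 90071249 to 90071529, signal 16.6). Sdf4 had 1 at its start (chromosome 4, 155992871 to 155993157, signal 20.2) and 1 in its body, and both were overlapped by cKO Pol II Ser5P. The predicted or multi-copy genes Gm21190, Gm21119 and Gm8271 had 2 cWT and no cKO regions either. The genes Gm15319, 9530057J20Rik and Speer4d had 2 cWT regions and 1 cKO region each, and Speer4c had 2 of each. Whether reads there come from other copies was not tested. Sipa1l2, which carries a Rap GTPase-activating domain, had 3 cKO and 2 cWT regions.

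Zmiz1, a transcriptional coregulator, had 4 cKO and 2 cWT regions. A cKO region (chromosome 14, 25378253 to 25378897, signal 7.59) and a cWT region (25377837 to 25378119, signal 7.57) lay next to each other about 80.6 and 81.2 kb before its nearest start. At Apbb1ip a cKO region and a cWT region overlapped by 34 bp between genes. Dym, a Golgi protein, and Pag1, an adaptor that recruits the kinase Csk, had 4 cKO regions and 1 cWT region each. The cWT region of Pag1 lay at 1 of its gene ends (chromosome 3, 9833304 to 9833667, signal 8.51), while its 4 cKO regions lay in the gene body or between genes. The start of Pag1 is not in the table used, so either gene end stood in for it.

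Across 23 gene lists, 17 had a larger share of members with a cKO region than the 16.1% of all protein-coding genes. The lists were drawn up with earlier results of these data known, they were not tested, and all genes include many that microglia do not use. The median member had 1 cKO region in 5 lists, which were myeloid transcription factors, immediate early genes, chromatin regulators, inflammation with NF-kB, and homeostatic microglia. It had 0 in the other 18 lists, as it did over all protein-coding genes. Members with a cWT region occurred in 12 lists, and 1.53% of all genes had one. Of all genes, 12.3% had a cKO region within 10 kb of a start, 12.1% had one inside the gene and 9.11% had one in the part of the list with the lower deposited p-values. Under these 3 settings 16, 17 and 16 of the 23 lists had a share above that of all genes, and 38 of the 69 list counts were lower by over 1.5 times.

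Among 30 myeloid transcription factors 23 had a cKO region, 3 of these had a cWT region as well, 1 had a cWT region only and 6 had none. With a cKO region within 10 kb there were 14 members, inside the gene 13 and among the lower p-values 14. The share was 76.7% with any cKO region and 46.7, 43.3 and 46.7% under these 3 settings. All genes had shares of 16.1, 12.3, 12.1 and 9.11%, in the same order. Klf6, Runx1 and Irf2 led with 5 cKO regions each, followed by Batf3 with 4, Bach1, a repressor of oxidative stress genes, with 3, and Fli1, an ETS factor, with 3. The members with both were Smad3, which carries TGF-beta signals, Klf4 and Ets2. At Ets2 a cKO region (chromosome 16, 95707372 to 95707919, signal 14.1) ended just before a cWT region (95707974 to 95708661, signal 6.58). Cebpd, a C/EBP factor induced in inflammation, had 1 cWT region at its start (chromosome 16, 15890349 to 15890693, signal 10.2) and no cKO region. Of the 47 cKO regions of this list, 9 (19.1%) lay at a gene start, against 54.9% of all assigned cKO regions. Counted by member, 8 of 30 (26.7%) had a cKO region at a start, against 10.4% of all genes.

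Homeostatic microglia genes showed 18 of 35 members with a cKO region. Of these, 17 had cKO regions only, Gpr34 had both, Tyrobp and Ltc4s had a cWT region only and 15 had neither. Within 10 kb 12 members had a cKO region, inside the gene 11 and among the lower p-values 13. The share was 51.4% with any cKO region and 34.3, 31.4 and 37.1% under these 3 settings. All genes had shares of 16.1, 12.3, 12.1 and 9.11%, in the same order. After Mef2c with 5 came Mef2a, another MEF2 factor, and Entpd1, which breaks down extracellular ATP, with 3 each, and then Tgfbr2, a TGF-beta receptor, P2ry13, a purinergic receptor, and Siglech with 2 each. The Siglech region at the start shown above ran from 55768159 to 55768457 on chromosome 7 (signal 11.4) and was overlapped by cWT H3K27ac. Both P2ry13 regions lay inside the gene Med12l. Gpr34, a lysophosphatidylserine receptor, had a cKO region (chromosome X, 13606663 to 13607136, signal 23.3) and a cWT region (13618560 to 13618932, signal 8.73). These lay 15.8 and 3.90 kb from its nearest start, both inside the neighbouring gene Cask. The cWT region of Tyrobp, the adaptor of TREM2, lay 19.3 kb before its start (chromosome 7, 30394238 to 30394809). Of the 31 cKO regions of the list, 7 (22.6%) lay at a start, against 54.9% of all assigned cKO regions. Counted by member, 7 of 35 (20%) had a cKO region at a start, against 10.4% of all genes. Tmem119, the marker whose gene drives the Cre, had no Pol II region in either list.

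Immediate early genes, which respond within minutes to stimuli and to handling of cells, had 12 of 20 members with a cKO region. That was 60% of the list, against 16.1% of all genes. The count was 7 within 10 kb (35%), 3 inside the gene (15%) and 9 among the lower p-values (45%). All genes had shares of 12.3, 12.1 and 9.11% under these settings. Fos led with 4 regions, none of them at its start, between 37.5 kb before it and 49.9 kb after it. Ier5 had 3, and Ier3, Atf3, Btg2 and Nr4a1 had 2 each. Egr2 had 1 cWT region at its start (chromosome 10, 67537541 to 67537732, signal 6.96) and no cKO region. The part that handling of cells played in these regions was not tested.

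Inflammation and NF-kB genes had 19 of 35 members with a cKO region, with 13 within 10 kb, 8 inside the gene and 12 among the lower p-values. These were shares of 54.3, 37.1, 22.9 and 34.3%, against 16.1, 12.3, 12.1 and 9.11% of all genes. Il10ra, a subunit of the interleukin-10 receptor, had 4, Ccl2, a chemokine that attracts monocytes, had 3, and Il1b, which encodes interleukin-1 beta, and Tnfaip3, the NF-kB inhibitor A20, had 2 each. At Ccl2 1 region lay over the start (chromosome 11, 82035365 to 82035777, signal 15.2). The pair at Tnfaip3 abuts and carries the same signal, 17.0, and lies 18.3 to 18.6 kb before the start. Ccl4, another chemokine, had 2 cKO regions and 1 cWT region. The cWT one lay over its start (chromosome 11, 83648402 to 83648912, signal 18.8), and the nearer cKO one lay 1543 bp before it (83646810 to 83647352, signal 5.99).

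Interferon response genes had no member with a cWT region, and 1.53% of all genes had one. A cKO region was assigned to 4 of 28 members, a share of 14.3% against 16.1% of all genes. The count was 2 within 10 kb (7.14%), 1 inside the gene (3.57%) and 3 among the lower p-values (10.7%). The shares of all genes under these settings were 12.3, 12.1 and 9.11%. The 4 were Ifnar1 and Ifnar2, the receptor chains for type I interferon, with 2 each, and Irf1 and Ifitm3 with 1 each. Disease-associated microglia genes, which are induced around plaques and dying cells, had 6 of 25 members (24.0%, against 16.1% of all genes). These were the cathepsin Ctsd with 2 regions and Lgals3, B2m, Gpnmb, Axl and Itgax with 1 each. The Itgax region lay inside the gene Itgam, and 1 of the 7 regions lay at a start. With assignment limited to 10 kb, 1 of 25 members had a cKO region (4%, against 12.3% of all genes). Inside the gene 2 had one (8%, against 12.1%), and among the lower p-values 4 (16%, against 9.11%).

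Phagocytosis and lysosome genes had 12 of 31 members with a cKO region (38.7%, against 16.1% of all genes). Among the lower p-values 6 had one (19.4%, against 9.11%). Of their 16 cKO regions, 9 lay at a start. Plcg2, a phospholipase in immune receptor signalling, had 3, Elmo1, which activates Rac during engulfment, had 2, and Syk, the kinase of ITAM receptors, had 2 cKO regions and 1 cWT region. Npc1, a lysosomal cholesterol transporter, had overlapping cKO and cWT regions at its start. Regulators of actin and of small GTPases had 15 of 36 members with a cKO region (41.7%, against 16.1% of all genes). Within 10 kb 10 had one (27.8%, against 12.3%), and among the lower p-values 8 (22.2%, against 9.11%). Beside Rcsd1, Tns3 and Fgd2, the 15 members included Actb, the cytoplasmic actin, with 4. Asap1 and Wasf2 were also among them, with 2 cKO regions and 1 cWT region each.

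Most cKO regions of the housekeeping lists lay at gene starts, as did 54.9% of all assigned cKO regions. Of 30 cytosolic ribosomal protein genes 10 had a cKO region, each with 1 region, and 9 of these 10 regions lay at a start. Rps24, Rps6, Rpl11, Rpl27, Rps14 and Rpl22 were among them. Of 22 oxidative phosphorylation genes 5 had a cKO region, with 6 of 7 regions at a start, and Sdhb and Sdhc, subunits of succinate dehydrogenase, had 2 regions each. Of 33 Mediator genes 11 had a cKO region, with 9 of 12 regions at a start. The shares of members with a cKO region were 33.3, 22.7 and 33.3% in these 3 lists, against 16.1% of all genes. Among the lower p-values 5 ribosomal protein genes (16.7%), 2 oxidative phosphorylation genes (9.09%) and 3 Mediator genes (9.09%) had a cKO region. Of all genes 9.11% had one there. For comparison, 3 of 21 cKO regions lay at a start in the list of immediate early genes, 11 of 27 in inflammation and NF-kB and 9 of 16 in phagocytosis and lysosome. These shares rest on few regions and were not tested against each other.

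Of 30 Pol II subunits and general factors 5 had a cKO region (16.7%, against 16.1% of all genes), namely Gtf2a1 with 2 and Gtf2f1, Taf10, Ercc3 and Gtf2a2 with 1 each. Polr2i, a small subunit of the polymerase, had 1 cWT region, at its start (chromosome 7, 30231989 to 30232264, signal 8.12), and Polr2a, the largest subunit, had no region in either list. Of 34 genes of pause release and elongation 10 had a cKO region (29.4%, against 16.1% of all genes). Within 10 kb 7 had one (20.6%, against 12.3%), and inside the gene 6 (17.6%, against 12.1%). Cdk9, the kinase that releases paused polymerase, had 2.

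Genes of the microRNA machinery had 7 of 16 members with a cKO region (43.75%, against 16.1% of all genes). Of their 9 cKO regions 8 lay at a start, as did 54.9% of all assigned cKO regions. Among the lower p-values 4 members had a cKO region (25%, against 9.11% of all genes). These genes are long, with a median of 53174.5 bp against 17146 bp for all. Dgcr8 had 2, which abut and share a signal of 18.0 (chromosome 16, 18289018 to 18289496 and 18289497 to 18289786), so they amount to 1 joined region over the start shown above. Ago2, the Argonaute that cuts targets, had 1 at a start (chromosome 15, 73185046 to 73185409, signal 9.37) and 1 in its gene body. Drosha, the nuclease that trims primary microRNA transcripts, had 1 at its start (chromosome 15, 12824638 to 12824911, signal 9.19). Tnrc6a, Tnrc6c and Ran had 1 each. No gene of this group had a cWT region, and 1.53% of all genes had one.

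Genes reported elsewhere as miR-137 targets had 10 of 23 members with a cKO region (43.5%, against 16.1% of all genes). The count was 7 within 10 kb (30.4%), 6 inside the gene (26.1%) and 7 among the lower p-values (30.4%). Of all genes 12.3, 12.1 and 9.11% had one under these settings. Pxn, the focal adhesion protein paxillin, and Mef2a had 3 each, Cdk6, a cell cycle kinase, had 2 cKO regions and 1 cWT region, and Fmnl2, Cdc42 and Mitf had 1 each. These genes are long, with a median of 132275 bp against 17146 bp for all. Chromatin regulators, with a median length of 67646 bp, had 20 of 35 members with a cKO region (57.1%, against 16.1% of all genes). Among the lower p-values 12 had one (34.3%, against 9.11%). Chd7 had 6 cKO regions and Chd9 had 3.

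Markers of 6 other cell types had 14 of 90 members with a cKO region (15.6%, against 16.1% of all genes). None had a cKO region at a start, against 10.4% of all genes, and none had a cWT region, against 1.53%. The count with a cKO region was 4 within 10 kb (4.44%), 7 inside the gene (7.78%) and 5 among the lower p-values (5.56%). The shares of all genes under these settings were 12.3, 12.1 and 9.11%. The 14 were 5 of 15 for endothelial and mural cells, 2 of 15 each for neurons, astrocytes, oligodendrocytes, and border macrophages with monocytes, and 1 of 15 for lymphocytes. Slc1a3 with 5 regions and Mbp, a myelin protein, with 3 accounted for the most. The lists hold genotype-specific regions only, so a marker without a region gives no reading of how much of that cell type was present.

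**Figure D4:**
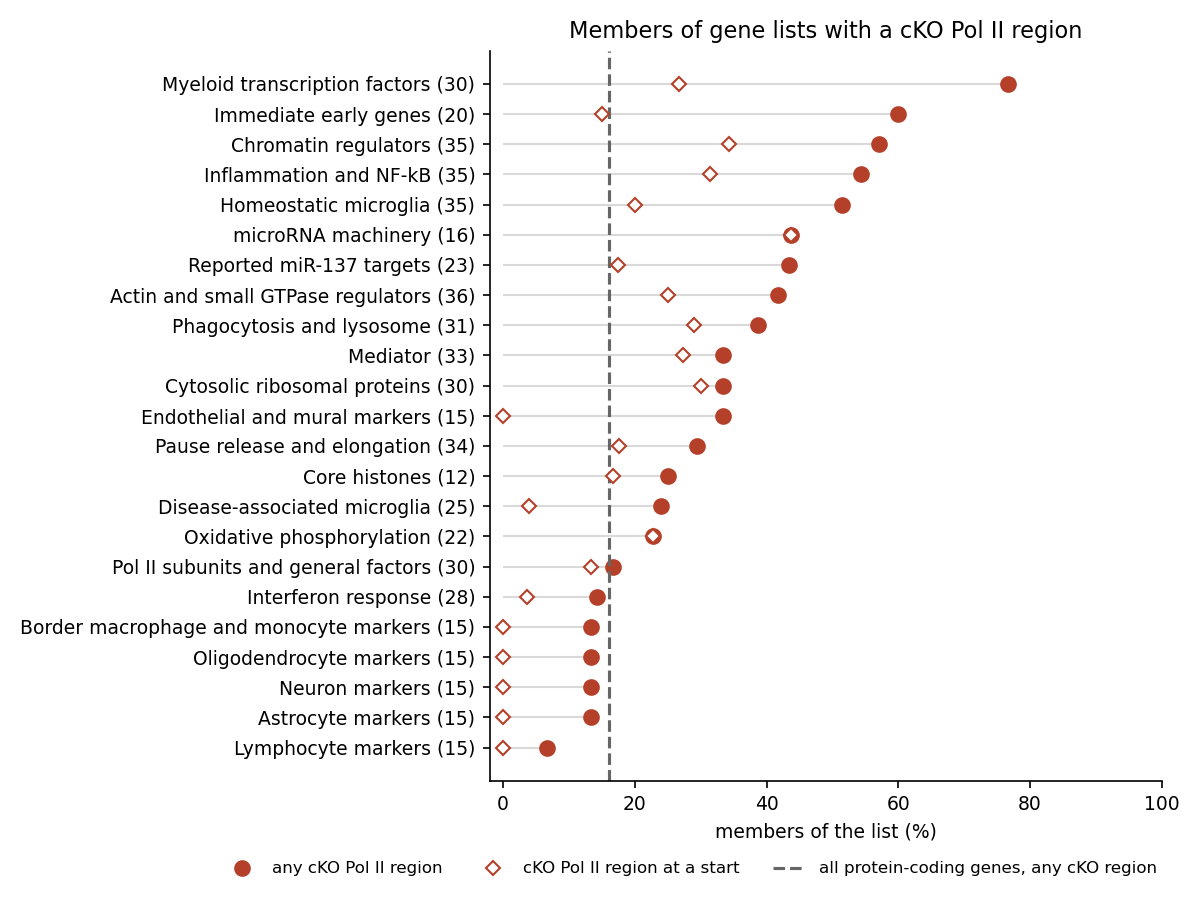
Share of the members of each gene list (%, number of members in brackets) with any cKO Pol II region (filled circles) and with a cKO region at a gene start (open diamonds). The dashed line is the 16.1% of all protein-coding genes with any cKO region, and 10.4% of all had one at a start. Myeloid transcription factors reached 76.7% with any region and 26.7% at a start. The 6 marker lists of other cell types have no member with a region at a start.

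Pol II regions of both lists were overlapped most often by cKO Pol II Ser5P, the list of the initiating form of the polymerase. Of cKO Pol II regions 51.2% (interval 49.8 to 52.7%) and of cWT Pol II regions 48.5% (interval 43.4 to 53.5%) shared at least 1 bp with a cKO Ser5P region. This was 38.8% of the cKO Ser5P list for the first overlap and 3.16% of it for the second. The cWT Ser5P list, with 127 regions, overlapped 0.387% of cKO and 4.06% of cWT Pol II regions. The cWT Pol II regions thus lay under Ser5P regions listed for the opposite genotype about as often as the cKO ones did. The shared catalogue number given for these antibodies stands beside this result, and its part in it was not tested.

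Within the cKO list the overlap with cKO Ser5P was 57.3% at gene starts, 43.4% in gene bodies and 46.3% between genes. In the cWT list it was 53.1, 47.2 and 42.5%. Regions of the cKO list with a Ser5P overlap had a median signal of 13.4, and those without it had 11.3. In the cWT list these medians were 10.1 and 9.87.

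The other antibodies covered fewer Pol II regions. H3K27ac of the cWT list overlapped 15.02% of cKO and 13.7% of cWT Pol II regions, and H3K27ac of the cKO list overlapped 2.02 and 3.55%. H3K4me3 of the cKO list overlapped 4.84% of cKO and 5.84% of cWT Pol II regions. Pu.1 of the cKO list overlapped 3.68% of cKO Pol II regions (interval 3.16 to 4.26%) and 7.11% of cWT ones (interval 4.77 to 10.1%). Pu.1 was rarer at starts. Among cKO Pol II regions it overlapped 1.24% at gene starts, 6.13% in gene bodies and 6.53% between genes. No region of the other 4 antibodies touched 35.6% of cKO and 34.5% of cWT Pol II regions.

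**Figure D5:**
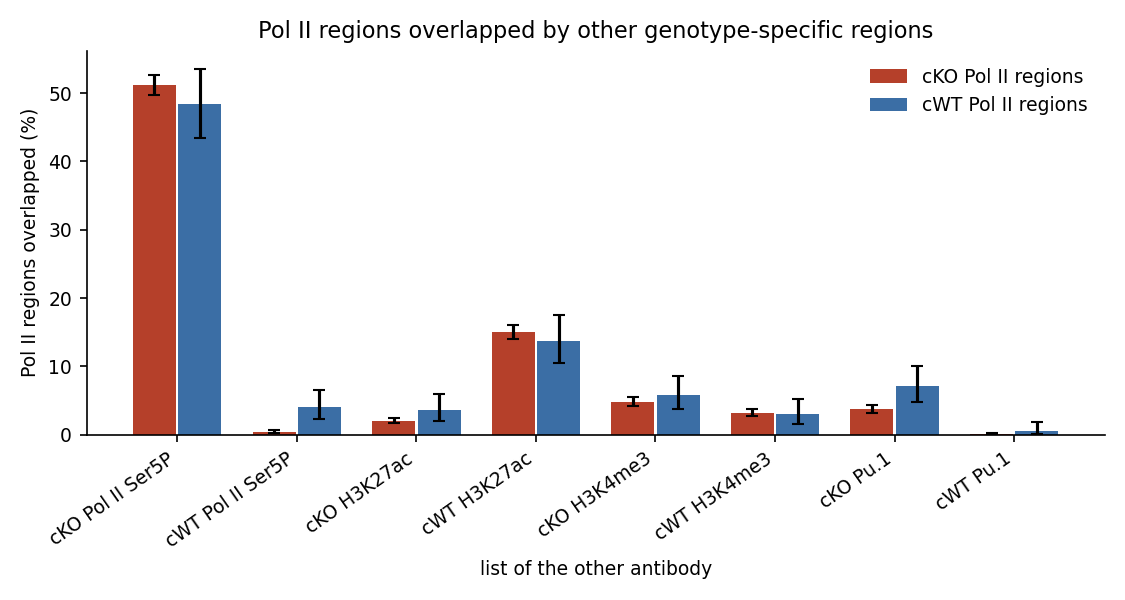
Share of Pol II regions (%) that share at least 1 bp with each list of the other 4 antibodies, for the cKO Pol II list (red) and the cWT Pol II list (blue), with exact 95% intervals. The bars for cKO Pol II Ser5P, 51.2% of cKO and 48.5% of cWT Pol II regions, stand above all others, and the lists on the horizontal axis differ in length.

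At the level of genes, 65.8% of the 3525 genes with a cKO Pol II region also had a cKO Ser5P region, as had 71.0% of the 335 genes with a cWT Pol II region, against 20.3% of all protein-coding genes. A cWT H3K27ac region was assigned to 44.3% of genes with a cKO Pol II region and to 46.0% of genes with a cWT one, against 19.5% of all. Longer genes more often had a Pol II region, and gene length was not examined for the other antibodies. Genes that microglia do not use are also among all genes, so these shares are descriptions.

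Ranked by deposited p-value, the first cKO region lay between genes on chromosome 3 (149052452 to 149052991), with p = 3.40e-07 in the authors' deposited list and a signal of 62.1. Its nearest start, of the adhesion receptor gene Adgrl2, is 98.1 kb away. The next lay on the same chromosome (62159090 to 62159490, signal 46.3), 179 kb from the start of Arhgef26. The third lay over the start of Rnf34, a ubiquitin ligase (chromosome 5, 122849683 to 122850844, signal 22.5). The start-proximal ones that followed lay at Sil1, a co-chaperone of the endoplasmic reticulum, Znfx1, a helicase in antiviral sensing, Cryzl1 and Rprd2, which binds the tail of Pol II. The other 3 of the 10 lay at Nfia, a nuclear factor I gene, in its gene body, and between genes nearest to Tex44 and Prok2. Of these 10 regions 5 lay at a gene start and 4 were overlapped by cKO Ser5P.

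The first cWT region by deposited p-value lay inside Aida, 2062 bp before the start of its neighbour Brox (chromosome 1, 183299135 to 183299575, signal 26.7, p = 5.42e-04 in the authors' deposited list). Next came a region in the gene body of Ankar (chromosome 1, 72696235 to 72696565, signal 30.1) and one between genes, 14.7 kb before the start of Kcnd2, a potassium channel (chromosome 6, 21200475 to 21200822, signal 26.0). Others of the 10 lay at the starts of Ube2m, which conjugates the modifier NEDD8, and Acox3, a peroxisomal oxidase. Of these 10 regions 3 lay at a gene start and none was overlapped by cKO Ser5P. Of the 5 highest signals in the cKO list, 1 lay at the start of H1f4, a linker histone, at 30.9 (chromosome 13, 23622137 to 23622539).

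No listed Pol II region lay near Mir137 itself (chromosome 3, 118433857 to 118433929). The nearest cKO region was 1349 kb away, by Ptbp2, and the nearest cWT region 1626 kb away. The lists therefore give no reading of the deleted gene in either genotype, and genotypes are as labelled. Jdp2, an AP-1 family repressor, had 1 cKO region, 57.8 kb before its start (chromosome 12, 85541073 to 85541547, signal 8.87, overlapped by cKO Ser5P), in the interval between Fos and Jdp2. Spi1, which encodes Pu.1, had no Pol II region in either list.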

How the data were processed

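Microglia of 2 genotypes were profiled with 5 antibodies, 3 samples per genotype and antibody, and the authors deposited 10 lists of genotype-specific regions. HOMER 4.11, MACS2 2.2.7.1, Bowtie2 2.4.4 and bedtools 2.30.0 are named, per the submitters' processing notes, with no role stated, as are the builds GRCm38 and mm10. Each region has a deposited score from the authors, which equalled the whole part of 125 times the negative log2 of the p-value, capped at 1000, in 100% of regions. The deposited signal of each region is the authors' value on an unstated scale. The deposited p-value and its adjusted form are the authors' own, with no stated test. No file holds a value per replicate or a depth.

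Regions were placed on RefSeq genes (mm10). Starts came from RefSeq start windows for 17492 of 21900 protein-coding genes (79.9%), and either gene end served for the other 4408. A region was at a gene start within 2 kb, and was assigned to the nearest start within 100 kb, which placed 4750 Pol II regions (94.2%). Shares carry exact 95% Clopper-Pearson intervals, and lists were compared with Fisher's exact test, two-sided, at an adjusted p of 0.05. The functions were tested on simulated lists. Python 3.11.15, numpy 2.4.6, pandas 2.3.3, scipy 1.17.1 and matplotlib 3.10.9 were used.

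All 555 symbols in 23 gene lists matched RefSeq, 9 by an older symbol. Members and lists were chosen with earlier results of these data known. Named genes were the 20 with the most cKO regions, up to 15 with at least 2 cWT regions, the 8 with regions in both lists and the most in all, and up to 6 members per gene list and genotype. Named regions were the 10 with the lowest deposited p-value and the 5 with the highest signal in each list. Mir137, Jdp2, Spi1, Polr2a and Tmem119 were always named. Alternatives covered windows, widths, merging, overlap, assignment and p-value. Joining abutting regions, and using known starts only, were added after seeing the data.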

Additional observations from a re-analysis of the deposited data

How the results depend on the processing

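No paired analysis was possible because the files hold 1 list per genotype and no value per replicate, and for the same reason no replicate could be left out. The cKO share of Pol II regions, 92.2% as listed, was 93.6% without regions under 300 bp, 93.1% of the base pairs covered and 89.5% where the deposited p-value lay under 0.05, in 17 cKO and 2 cWT regions. The difference in gene-start share, 7.49 points, was 5.01 points without regions under 300 bp and no longer passed. The gene-body difference of -0.22 points turned to 0.558 points with a window of 5 kb and to 0.331 points without regions under 300 bp, and passed in neither. The chromosome X difference of -1.74 points was -2.54 points without 904 windows rich in predicted genes, which left 2102 regions, and no longer passed. Overlap with cKO Ser5P fell to 45.2% of cKO regions where 0.5 of the region had to be covered, and with a gap of 1 kb it was 54.3% of cKO and 53.6% of cWT regions. Genes with regions in both lists numbered 65 within 10 kb, 86 by gene span and 44 in the part of each list with the lower p-values, where 1952 genes had cKO regions only and 126 had cWT regions only. The cause of these shifts was not tested. The other 29 values recomputed for these results kept their direction and side of the threshold, or moved within the limits set. Counts of gene-list members were less stable: 38 of 69 were lower by over 1.5 times under the 3 settings of assignment and p-value, for example 12 immediate early genes against 3 by gene span, and 11 Mediator genes against 3 among the lower p-values. Of 28 recomputed overlap shares with the other lists, 12 moved, all of them shares of the cKO Pol II list. A share counted as moved when it left the exact interval of its main value. That interval depends on the number of regions, so the count does not compare the stability of the cKO and cWT lists. Unknown depth limits every statement to the regions the authors listed.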
